A study of Mus musculus with 2 samples.

Results

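The cytosolic ribosome is built from a large (60S) and a small (40S) subunit, each an assembly of ribosomal RNA with a set of proteins that every cell needs in matched amounts. The genes of these proteins are among the most strongly transcribed in the genome. Most have a compact promoter that is open in nearly all tissues, and their mRNAs typically begin with a terminal oligopyrimidine (TOP) run, a C followed by pyrimidines at the 5′ end, through which mTOR signalling sets their translation. In the heart, output of these genes goes with cardiomyocyte growth. The values below describe how open the chromatin at these promoters was, which is not the amount of mRNA or protein.

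Open chromatin had been mapped by ATAC-seq, which uses a transposase (Tn5) to insert adapters where DNA is accessible, in nuclei of the heart from cardiac Ythdc1 deletion mice (Ythdc1 CKO, the knockout) and from floxed mice without it (Ythdc1flox/flox, the control). YTHDC1 is a nuclear protein that binds N6-methyladenosine in RNA, and the design asks what its loss from heart does to accessibility. There was 1 library of each genotype, both from mice 15 days old on normal chow. The Cre line behind the deletion, the number of animals behind each library and any pooling were not given in the sources used here, so neither the cells that lost Ythdc1 nor the spread between animals is known, and no p-value was computed.

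The genes were chosen by name and position. A gene was a member where its symbol was Rpl, Rps or Rplp with a number, or Rpsa, where RefSeq lists it as protein-coding, and where the authors' table assigns it a promoter peak (1 kb or less from a start). Its peak with the most counts over both libraries stood for the gene. Of 81 such symbols, 69 were members, out of 14854 genes in all that had a promoter peak. They comprised 39 proteins of the 60S subunit, 28 of the 40S subunit, and 2 paralogs that replace or accompany a core protein, Rpl3l and Rps27l. The authors' gene ontology column gave each of the 69 the term for a structural constituent of the ribosome. Of the other 12 symbols, 9 had a peak at or near their start that the table assigns to a neighbouring gene, and 3 (Rpl10l, Rpl32l and Rpl39l) had no peak within 1 kb.

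The counts in peaks were 6466537 in the knockout library and 6755590 in the control library, over 58076 merged peaks. The authors had called 41191 of these in the knockout and 48842 in the control. Values are given as counts, as counts scaled to each library's total in peaks (CPM), or as CPM per kb of peak (density), since levels of different promoters can be compared only per length. Ratios are knockout over control in CPM. The exact 95% interval of each ratio covers counting error only.

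Shown here, to compare starts with and without a TOP-like run, are 15 bases before and 15 bases from the RefSeq start (GRCm38.p6), read 5′ to 3′ on the strand of the gene. Capitals mark a run of at least 5 pyrimidines that begins with C within 5 bases of the start, and none are marked where there is no such run. Where the start itself is C, the run is counted from it, even if pyrimidines precede it. Elsewhere the base before the first C must not be a pyrimidine.
Rpl13a (chr7:45128731-45128760, minus strand): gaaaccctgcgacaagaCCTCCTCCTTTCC
Rpl15 (chr14:18270972-18271001, minus strand): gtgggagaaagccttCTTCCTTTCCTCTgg
Rps10 (chr17:27635230-27635259, minus strand): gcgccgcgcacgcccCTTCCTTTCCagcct
Rps6 (chr4:86857353-86857382, minus strand): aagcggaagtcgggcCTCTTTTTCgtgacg
Rpl38 (chr11:114668565-114668594, plus strand): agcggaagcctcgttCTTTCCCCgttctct
Rpl5 (chr5:107900513-107900542, plus strand): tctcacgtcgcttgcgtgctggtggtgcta
Rps19 (chr7:24884577-24884606, plus strand): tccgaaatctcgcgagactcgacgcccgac
The run was 14 bases long in Rpl13a, where it goes on past the bases shown, 13 in Rpl15, 10 in Rps10, 9 in Rps6 and 8 in Rpl38. Pyrimidines just before the start in Rpl15, Rps10, Rps6 and Rpl38 are not counted in these lengths. Rpl5 and Rps19 had none at the listed start, which may not be the start used in heart.

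The 150 bases before the start are shown for members at the ends of the ranges below. They are Rpl38 and Rpl5 (highest ratios), Rplp2 (one of the lowest), Rps21 (highest density) and Rps19 (most counts in the knockout library). Capitals mark matches on either strand to the sequence motifs listed further on.
Rpl38 (chr11:114668430-114668579, plus strand): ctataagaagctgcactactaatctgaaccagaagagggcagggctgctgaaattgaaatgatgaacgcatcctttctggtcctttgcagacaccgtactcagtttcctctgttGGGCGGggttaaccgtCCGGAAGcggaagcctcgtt
Rpl5 (chr5:107900378-107900527, plus strand): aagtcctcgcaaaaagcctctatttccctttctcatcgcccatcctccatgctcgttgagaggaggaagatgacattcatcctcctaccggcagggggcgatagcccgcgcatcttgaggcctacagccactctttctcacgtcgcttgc
Rplp2 (chr7:141447501-141447650, plus strand): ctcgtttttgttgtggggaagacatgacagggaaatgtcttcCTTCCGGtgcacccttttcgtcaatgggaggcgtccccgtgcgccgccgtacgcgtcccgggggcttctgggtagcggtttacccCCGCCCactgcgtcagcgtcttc
Rps21 (chr2:180257229-180257378, plus strand): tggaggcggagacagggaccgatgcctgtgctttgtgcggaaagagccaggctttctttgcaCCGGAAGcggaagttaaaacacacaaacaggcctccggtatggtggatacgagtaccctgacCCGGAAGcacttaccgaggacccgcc
Rps19 (chr7:24884442-24884591, plus strand): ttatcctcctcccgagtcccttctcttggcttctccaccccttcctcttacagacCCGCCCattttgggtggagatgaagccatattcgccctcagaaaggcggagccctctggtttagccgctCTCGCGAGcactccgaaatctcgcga
Rps21 carries CCGGAAG, the core of an ETS factor site, at 2 places. Rpl38 carries it once, next to GGGCGG, the core of an SP/KLF site, and Rplp2 carries both in reverse complement. Rps19 has a reverse-complement GGGCGG and the palindrome CTCGCGAG. The stretch shown for Rpl5 holds none of the motifs.

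Over the 50 members in RefSeq's promoter sequences, 22 (44%) had CCGGAAG on either strand within the 250 bases before and 50 after the start, against 11.9% of 17492 protein-coding genes. A pyrimidine run of the kind defined above was present at 19 starts (38%), against 13.6%. Starts without one can still lie among pyrimidines that the rule does not count, as those of Rps9 and Rps24 do. The share is therefore not that of TOP mRNAs. CTCGCGAG was present in 4 (8%), against 1.30%, and GGGCGG in 29 (58%), against 46.3%. GCCATC, the start of a YY1 site, was present in 9 (18%), against 13.5%. Those nearer to or below the share of all genes were CCAAT, bound by NF-Y, in 18 (36%) against 39.0%, TATAAA, the TATA box, in 4 (8%) against 13.3%, and GCGCATGC, bound by NRF1, in 2 (4%) against 3.61%. A match is a string of letters and not a bound site. The 17492 genes were not limited to those with a promoter peak, as the members were. Whether these shares differ from those of open promoters in general was therefore not tested. GC content was alike, with a median of 57% in members and 56.3% in all genes, while the median number of CpG in the 300 bases was 20.5 and 13.

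**Figure D1:**
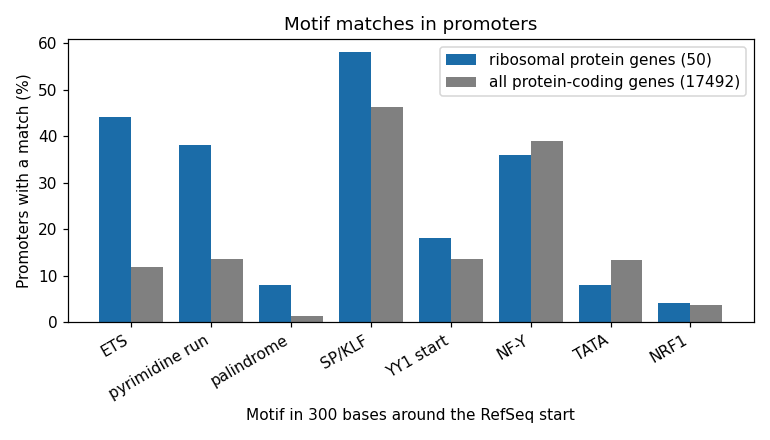
Share of promoters (%, vertical axis) with a match to each motif, for 50 ribosomal protein genes (blue) and 17492 protein-coding genes (grey), in the 300 bases around the RefSeq start; the pyrimidine run is counted only within 5 bases of the start. The ETS core stands at 44% against 11.9%, and TATA at 8% against 13.3%.

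All 69 promoters were open in both libraries. Each peak was called in both libraries and overlapped the transcription start in the authors' annotation (distance 0). Over all genes with a promoter peak 84.9% were called in both, and over those with summed counts in the members' range 97.3%. The median density of members was 56.4 CPM per kb in the knockout and 54.7 in the control, against 39.4 and 40.1 over all promoters. Over promoters with summed counts in the members' range the median density was 45.0 and 45.4. Of the 69, 58 lay above the median density of all promoters, and the median member was at percentile 73.8. Median counts per member were 283 in the knockout (66 to 840) and 300 in the control (73 to 776). By the authors' own fold enrichment over background, the median was 18.2 in the knockout and 19.9 in the control.

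Members differed from each other far more than the libraries did, with densities of 24.0 to 116 CPM per kb in the knockout and 24.5 to 118 in the control. Rps21, a 40S protein gene, had the densest promoter, with 116 CPM per kb in the knockout and 118 in the control (733 and 776 counts). It was followed by Rpl28 (100.4 and 102), Rps19 (103 and 88.9), Rpl13a (93.1 and 96.2), Rpl27 (92.7 and 95.7) and Rpl31 (92.6 and 93.9). RPL13A is also known as an interferon-regulated repressor of translation in human myeloid cells. RPL31 sits at the exit of the tunnel through which the new peptide leaves the ribosome. The least dense was Rpl4, whose protein lines that tunnel, with 24.0 CPM per kb in the knockout and 25.4 in the control (66 and 73 counts). Rpl37a (27.1 and 31.1), Rps4x, the X-linked S4 gene (31.1 and 27.5), Rpl38 (38.8 and 24.5), Rpl24 (35.1 and 33.4) and Rpl5 (42.5 and 28.6) came next. The peaks of Rpl38 and Rpl5, low in density in the control, are also those with the highest ratios. Across the 69 members the log2 ratio and log2 density had Pearson's r of -0.19 and Spearman's rho of -0.10, where both measures share the same counts.

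**Figure D2:**
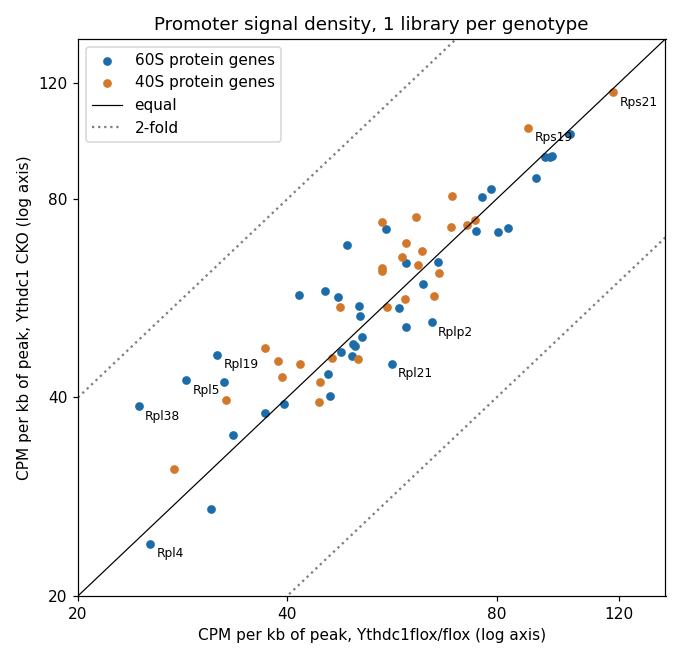
Promoter density (CPM per kb of peak, log axes) of the 69 members in the knockout library (vertical) against the control library (horizontal), 60S protein genes in blue and 40S in orange, paralogs included, with lines of equality and of a 2-fold difference. All points lie inside the 2-fold lines, Rps21 is densest in both libraries, and Rpl38, Rpl5 and Rpl19 stand highest above the line of equality.

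With CPM scaling the ribosomal protein promoters as a group were about as open in the knockout library as in the control library. CPM sets the totals in peaks equal, so it cannot show a change shared by all peaks. The median log2 ratio was 0.01 (interquartile range -0.07 to 0.21), against -0.02 over all promoters, and 35 of 69 members (50.7%) lay above 0, against 46.8%. Summed over members, the counts were 21144 in the knockout and 21126 in the control, a ratio of 1.05 (1.03 to 1.07). This direction depends on the scaling: on the authors' RPM scale, which divides by totals that include reads outside peaks, the summed ratio was 0.928, the median log2 ratio -0.16 and the median of all promoters -0.19. Relative to all promoters the members' median was higher by 0.03 on the log2 scale with CPM. TMM, RPM and median centring move all log2 ratios by nearly the same amount, so they could not change this difference. After a loess trend was removed it was 0.01.

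No member differed by 2-fold. Among all promoters 2.03% were higher in the knockout by 2-fold or more and 2.29% lower, and among the 11592 promoters with summed counts in the members' range these shares were 0.405% and 0.414%. The members' 0 of 69 is therefore near what promoters of such strength gave, and is not a result about ribosomal protein genes. Rpl38 alone passed 1.5-fold, which 13.4% of all promoters and 5.84% of those in the count range did in either direction. The SD of log2 ratios was 0.21 over members, where counting error alone would give about 0.13. It was 0.31 over promoters in the count range, where counting error gives about 0.15.

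**Figure D3:**
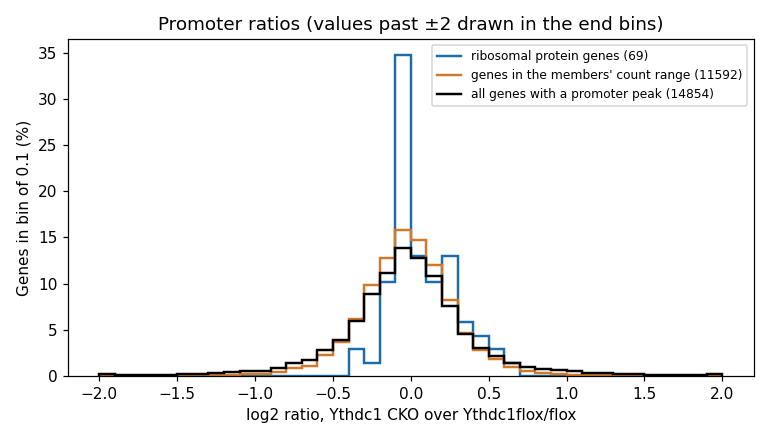
Distribution of promoter log2 ratios (knockout over control, horizontal axis) as the share of genes per bin of 0.1 (%, vertical axis) for the 69 members (blue), the 11592 genes in the members' count range (orange) and all 14854 genes with a promoter peak (black). The members span -0.33 to 0.66, with an SD of 0.21 against 0.31 in the count range, and none reaches the 2-fold limits at -1 and 1.

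Single promoters departed from 1 mostly on the higher side with CPM scaling, and mostly on the lower side on the RPM scale. The counting interval lay above 1 for 14 members (20.3%) and below 1 for 2 (2.90%). Over all promoters 14.1% of intervals lay above 1 and 16.9% below, and in the count range 13.3% and 16.6%. With TMM or median centring the members' counts became 20 and 2, and on the RPM scale 7 and 21, where 18.4% and 12.9% of all promoters (TMM, median centring) and 5.77% and 36.4% (RPM) were so. Of the 14, those of Rpl5, Rpl10a, Rpl17, Rpl19, Rpl23a, Rpl38 and Rps27l lay above 1 with each scaling run (CPM, TMM, RPM and median centring), and both lower ones, Rpl21 and Rplp2, lay below 1 with each.

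**Figure D4:**
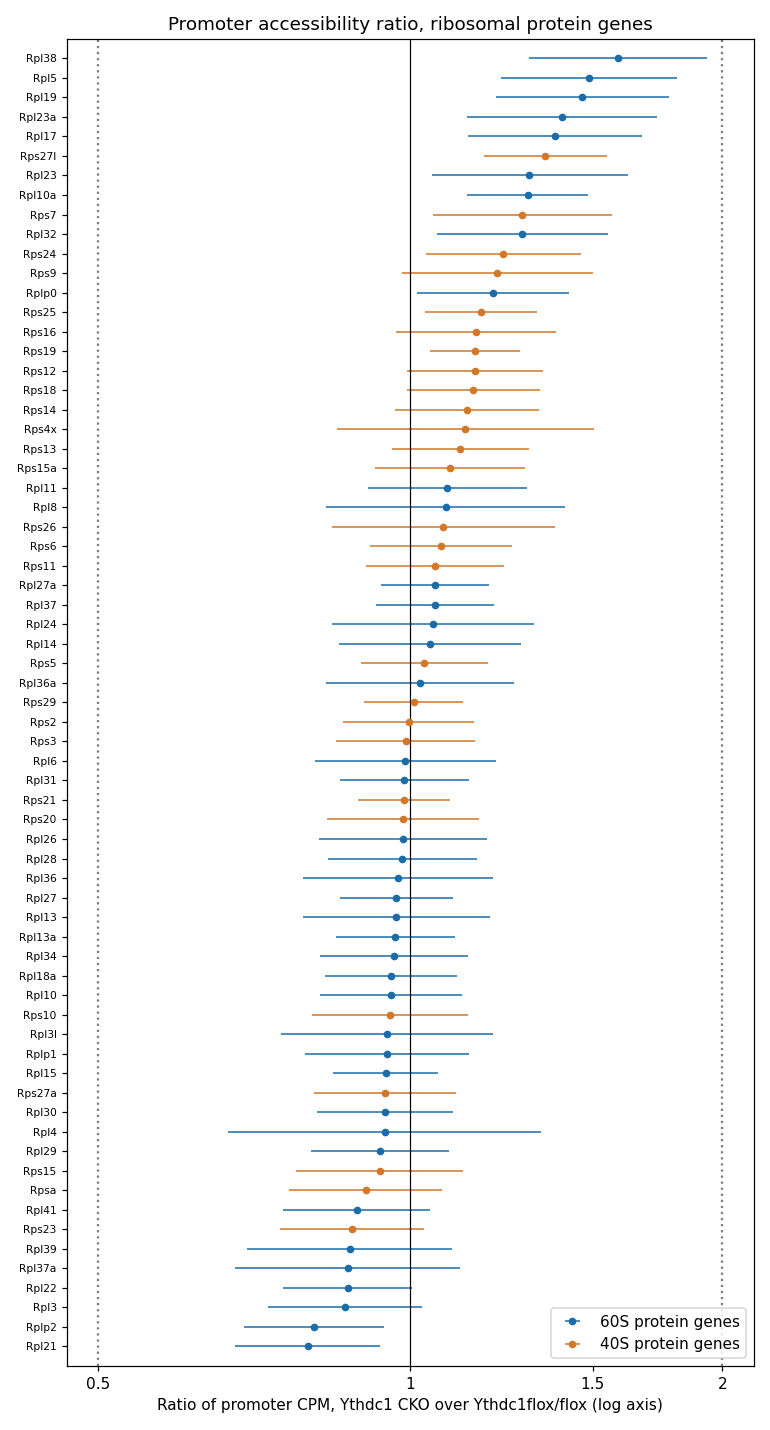
Ratio of promoter CPM, knockout over control (log axis), for 67 of the 69 members in order of the ratio, with bars for the exact 95% counting interval, 60S protein genes in blue and 40S in orange. Intervals of 14 members lie to the right of 1 and those of Rplp2 and Rpl21 to the left, and none of the points reaches the dotted 2-fold lines.

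Proteins of the 60S subunit held both ends of the range. Rpl38, known from the Tail-short mouse as a protein needed for translation of Hox mRNAs, had 261 counts in the knockout and 172 in the control, a ratio of 1.59 (1.30 to 1.93; chr11:114668421-114669460). Rpl5, which carries 5S rRNA into the subunit and binds Mdm2, had 256 and 180 counts, a ratio of 1.49 (1.22 to 1.81; chr5:107900339-107901269). Rpl19, a protein at the contact between subunits, had 262 counts in the knockout and 187 in the control, a ratio of 1.46 (1.21 to 1.78; chr11:98026536-98027407). The intervals of all 3 lay above 1 with CPM, TMM, RPM and median centring.

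The next highest 60S genes were Rpl23a and Rpl17. Rpl23a, the docking site of factors that meet the new peptide, had 213 counts in the knockout and 159 in the control (ratio 1.40, 1.13 to 1.73). Rpl17, which lines the tunnel, had 252 and 191 (1.38, 1.14 to 1.67). Of proteins elsewhere in the subunit, Rpl10a, which forms the L1 stalk where spent tRNA leaves, had 493 and 397 counts (1.30, 1.13 to 1.48), Rpl23, at the subunit interface, had 192 and 154 (1.30, 1.05 to 1.62), and Rpl32 had 249 and 203 (1.28, 1.06 to 1.55). Rpl23 and Rpl32 were not separated from 1 on the RPM scale.

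At the lower end, Rpl21 had 269 counts in the knockout and 353 in the control, a ratio of 0.796 (0.677 to 0.936; chr5:146832598-146833521). Rpl3, whose protein reaches the peptidyl transferase centre, had 250 and 302 counts (0.865, 0.728 to 1.03). Rpl22, a subunit protein with a particular role in T cell development, had 355 and 426 (0.871, 0.754 to 1.005), Rpl37a had 120 and 144 (0.871, 0.678 to 1.12), and the X-linked Rpl39 had 144 and 172 (0.875, 0.696 to 1.10). The intervals of these 4 hold 1 with CPM scaling and lie below 1 on the RPM scale. Over the 39 core 60S genes the median log2 ratio was -0.03, 16 lay above 0, and 9 intervals were above 1 and 2 below, against 6 above and 14 below on the RPM scale. Among all promoters 46.8% of ratios lay above 0. Their intervals lay above 1 for 14.1% and below for 16.9% with CPM, against 5.77% and 36.4% with RPM.

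The stalk genes lay on both sides of 1. The P stalk, which recruits elongation factors, consists of Rplp0 and the pairs of Rplp1 and Rplp2. Rplp0 had 300 counts in the knockout and 261 in the control (ratio 1.20, 1.01 to 1.42), an interval that holds 1 on the RPM scale. Rplp1 had 230 and 253 (0.950, 0.791 to 1.14). Rplp2 had 292 and 378 (0.807, 0.690 to 0.943; chr7:141447113-141447979), so the first and last of the 3 lay on opposite sides of 1.

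Genes of the 40S subunit spread less, with log2 ratios of -0.19 to 0.36 and an SD of 0.15, where counting error gives about 0.12. Their median was 0.10, with 18 of 28 above 0, and on the RPM scale -0.07 with 11 above 0. Among all promoters 46.8% lay above 0 with CPM and 25.6% with RPM. Intervals above 1 with CPM scaling were those of Rps7, with 227 counts in the knockout and 185 in the control (1.28, 1.05 to 1.57), Rps24, with 293 and 249 (1.23, 1.03 to 1.46), Rps25, with 544 and 486 (1.17, 1.03 to 1.32), and Rps19, with 840 and 760 (1.15, 1.05 to 1.28). All 4 held 1 on the RPM scale. With CPM scaling none of the 28 lay below 1, and on the RPM scale 7 did. Intervals of all promoters lay above 1 for 14.1% and below for 16.9% with CPM, and for 5.77% and 36.4% with RPM. The lowest 40S gene was Rps23, part of the decoding centre, with 291 and 346 counts (0.879, 0.749 to 1.03). Rpsa, also known as the laminin receptor precursor, had 260 and 300 (0.905, 0.764 to 1.07). Rps6, the substrate of S6 kinase, had 328 counts in the knockout and 320 in the control (1.07, 0.915 to 1.25). No test of 40S against 60S genes was made.

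Genes mutated in human Diamond-Blackfan anaemia, an inherited failure of red cell production, were described as a list. Of 16 listed, 13 were members, with a median log2 ratio of 0.11, 8 above 0, and intervals above 1 at Rps19, Rps24, Rps7 and Rpl5. Among all promoters 46.8% of ratios lay above 0, with 14.1% of intervals above 1 and 16.9% below. On the RPM scale the median was -0.07, with 5 above 0, and 1 interval lay above 1 (Rpl5) and 3 below (Rpl15, Rpl27 and Rps29). The RPM shares among all promoters were 25.6% above 0, with 5.77% of intervals above 1 and 36.4% below. Others on the list were Rpl11 (265 counts in the knockout and 255 in the control), Rps26 (136 and 132), Rps29 (648 and 672), Rps20 (276 and 293), Rpl26 (225 and 239), Rpl27 (478 and 515), Rps10 (257 and 281) and Rpl15 (550 and 607). The intervals of these 8 hold 1 with CPM scaling, with ratios from 0.947 for Rpl15 to 1.09 for Rpl11. Rpl11 is the partner of Rpl5 in the 5S particle that binds Mdm2, and its interval was 0.911 to 1.29.

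The paralogs are of interest in heart, since Rpl3l takes the place of Rpl3 in striated muscle of mouse and human. Its peak (chr17:24732413-24732776) had 140 counts in the knockout and 154 in the control, a ratio of 0.950 (0.750 to 1.20). That peak covers a RefSeq start inside the gene, at 24732685, and not the first start listed, at 24727826. The density was 59.5 CPM per kb in the knockout and 62.6 in the control, above the 51.2 and 59.2 of Rpl3. That order holds per kb only. The Rpl3 peak was wider (755 bp, against 364 bp for Rpl3l) and held more counts (250 in the knockout and 302 in the control). Rps27l, a p53 target gene in human and mouse cells, had 487 and 377 counts (1.35, 1.18 to 1.55; chr9:66945585-66946605). Its interval was above 1 with each scaling run.

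A total of 49 members had no other peak assigned to them, and 20 had 31 further peaks, with median counts of 67 in both libraries. Among these, Rps26 had a second promoter peak of 79 and 82 counts that covers its RefSeq start, which the stronger peak does not. A second promoter peak of Rpl10 (chrX:74271273-74271472) had 56 counts in the knockout and 25 in the control (ratio 2.34, 1.44 to 3.91). It was called in the knockout alone, which selects for a high count there, while the interval of the main Rpl10 peak held 1 with CPM scaling and lay below 1 on the RPM scale. A peak downstream of Rpl8, at 75 and 44 counts, was also called in the knockout alone. Of all 58076 merged peaks, 41191 were called in the knockout and 48842 in the control, so control-alone calls were the more frequent kind. Calls in 1 library alone are therefore not read as a result about the members. A further 8 peaks were called in the control alone, which selects for a high count there. They were assigned to Rpl17, Rpl37a (2 peaks), Rps14, Rps15a, Rps19, Rps27l and Rps6. The lowest, 11584 bp from Rps6 and inside an intron of another gene (chr4:86845421-86845748), had 6 counts in the knockout and 54 in the control (0.116, 0.0408 to 0.269).

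Ribosomal protein genes outside the rule are given with CPM scaling. Of those whose promoter peak the table assigns to a neighbour, Rpl7a (603 counts in the knockout and 467 in the control, 1.35, 1.19 to 1.53) and Rpl12 (289 and 253, 1.19, 1.005 to 1.42) had intervals above 1. Rpl35 had one below 1 (223 and 305, 0.764, 0.640 to 0.911). Rpl9, Rpl18, Rpl35a, Rps27 and Rps28 held 1, with ratios from 0.951 to 1.09. Rpl7 has no start in the sequence table, and the nearest peak, assigned to Rdh10, had 648 and 693 counts. These peaks can serve both genes. Among core proteins and paralogs with other kinds of symbol, Rps3a1 (294 and 296), Rack1 (279 and 250), Rpl7l1 (257 and 230) and Rpl36al (319 and 369) held 1. Fau had 382 and 341 (1.17, 1.01 to 1.36). Rpl22l1, the paralog of Rpl22, had 173 and 249 (0.726, 0.594 to 0.885). The ratio of Rpl22 was also below 1, at 0.871, but its interval (0.754 to 1.005) held 1. Among all promoters 14.1% of intervals lay above 1 and 16.9% below with CPM.

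Other genes of protein synthesis and turnover were alike in their medians. The median log2 ratio was 0.05 for mitochondrial ribosomal proteins (64 of 78 measured, 8 intervals above 1 and 7 below) and 0.06 for translation factors (58 of 71, 14 above and 3 below). It was 0.04 for ribosome biogenesis genes (26 of 31, 6 and 2), -0.02 for aminoacyl-tRNA synthetases (18 of 20, 1 and 1) and 0.03 for proteasome subunits (33 of 39, 4 and 4). For all promoters it was -0.02, with 14.1% of intervals above 1 and 16.9% below. Median densities of these 5 lists lay between 43.7 and 51.0 CPM per kb in the knockout and between 41.6 and 47.9 in the control, below the 56.4 and 54.7 of the members. The lists describe these libraries and were not tested against each other.

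**Figure D5:**
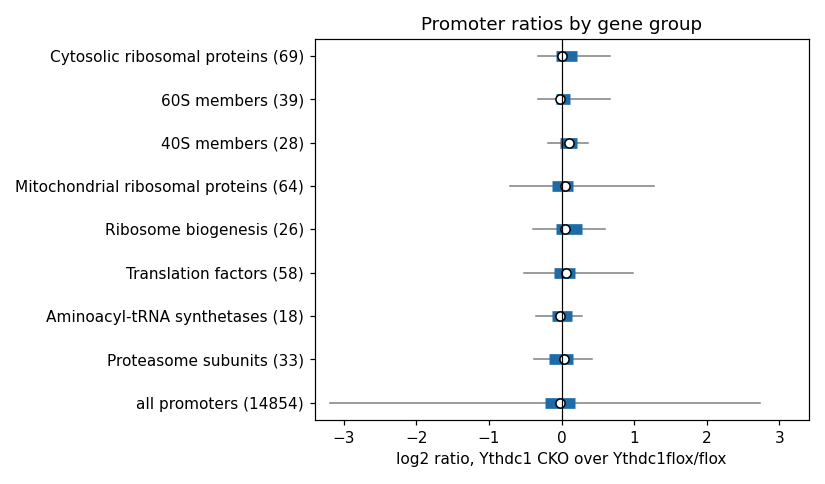
Promoter log2 ratios (knockout over control, horizontal axis) by gene group, with the number of measured genes in brackets: circle, median; thick bar, interquartile range; thin line, lowest to highest. Group medians lie between -0.03 and 0.10, and the ribosomal protein genes span -0.33 to 0.66.

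Features of the genes are set beside the ratio as description, with no test. Members with CCGGAAG had a median log2 ratio of 0.04 (22 genes) and those without 0.05 (28). Members with a pyrimidine run by the rule above had -0.02 (19) and those without 0.08 (31). That split depends on the rule and the listed start, and is not one of TOP against other mRNAs. With and without GGGCGG the medians were -0.01 (29) and 0.10 (21), with and without CCAAT 0.08 (18) and -0.02 (32), and with and without GCCATC -0.02 (9) and 0.08 (41). The 27 members with a small nucleolar RNA gene in their span had a median of -0.02 and the other 42 of 0.05. The 4 X-linked members had -0.02. Pearson's r with the log2 ratio over the 69 members was 0.11 for peak width and -0.07 for log2 CPM.

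Promoters of cell type markers checked the tissue and differed between the libraries with CPM scaling. Among all promoters 46.8% of ratios lay above 0 with CPM and 25.6% on the RPM scale. The counts of higher markers below are with CPM, and on the RPM scale, which lowers the ratios, they could be smaller. In hearts with a mixture of cells, fewer cells of a type and less open chromatin per cell cannot be told apart. Cardiomyocyte markers had a peak at 7 of 8 promoters (not Myl2), with summed signal of 325 CPM in the knockout and 370 in the control and 2 of 7 higher in the knockout. Fibroblast markers (5 of 5) had 104 and 81.4 CPM, with 3 of 5 higher in the knockout and Col1a1 and Dcn lower. Endothelial markers (5 of 5) had 107 and 90.9 CPM, with 4 of 5 higher, and mural markers (4 of 5, not Rgs5) 72.53 and 50.03, with 4 of 4 higher. No myeloid marker had a promoter peak under an identifier matched to it (0 of 5). Of erythroid markers only Epor and Klf1 did, with 34.2 and 31.1 CPM and Epor alone higher. A marker given as without a peak, Myl2 and Rgs5 included, may have one assigned to a neighbouring gene or to an unmatched identifier. The part of these differences in the ribosomal protein values was not tested. The promoter of Ythdc1 had 314 and 358 counts, which does not check the deletion, as the sources used here do not name the deleted exons. Many ribosomal protein genes also have processed pseudogene copies elsewhere in the genome, and how reads with several matches were handled is not given either.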

How the data were processed

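ATAC-seq reads were aligned with BWA and peaks called with MACS2 on the mouse build GRCm38.p6, per the submitters' processing notes, which give no versions. The read filters and the unit of counting (reads, fragments or insertions) are not stated in the labels or headers. The authors deposited a single table with 58076 peaks merged over both libraries. Its counts are whole numbers per merged peak, per the file headers, and were used as deposited. The authors' RPM values equal (count + 1) times 0.01822 in the knockout and 0.01965 in the control library. The authors' fold enrichment is a ratio over background with no input library, and the deposited log2 fold change is the log2 ratio of the RPM values.

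CPM was taken over counts in peaks, with 0.5 counts added per library for log2 ratios. The 2-fold limit was a rule of size and not a test. Intervals are exact (Clopper-Pearson, 95%), and counting error is all they cover. Starts and ends of peaks are as the table gives them. Ensembl identifiers took RefSeq symbols by position and strand, where overlap over union was at least 0.5, or at least 0.1 with an end within 100 bp. Of 24480 identifiers 18161 (74.2%) matched, and 88.1% of genes with a promoter peak. Sequences and starts are from RefSeq (GRCm38.p6), the first start listed per gene for motifs.

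Groups followed the genotype labels. The members and all gene lists were chosen with earlier results of these data known. Genes named are the 8 highest and 8 lowest ratios, the 6 highest and 6 lowest densities, paralogs, stalk genes, Rpsa, Diamond-Blackfan genes, and members with a second promoter peak or a peak called in 1 library alone. Others were chosen after their values were seen, and a few that the rule names are not reported here. Counts of intervals above or below 1 were an addition made with the data already seen. Alternatives were TMM factors (edgeR 4.0.16 in R 4.3.3), the RPM scale, median centring, a loess trend (statsmodels 0.14.6), another pseudocount, filters, and other choices of peaks and members. Steps ran in Python 3.11.15 with numpy 2.4.6, pandas 2.3.3 and scipy 1.17.1. The ratio, its interval and the 2-fold rule were tested on simulated counts, and the other steps were not.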

Additional observations from a re-analysis of the deposited data

How the results depend on the processing

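With 1 library per genotype no replicate could be left out. No paired analysis was possible because each group held 1 library. Of 59 alternative values, 48 were counted as near the reported one and 11 were not, a tally that is no measure of robustness. Limiting to peaks called in both libraries or to at least 100 counts, or taking promoters within 3 kb, returned the same values for the members. All members were called in both libraries, so that filter could not move them. Members above 0 and intervals above 1 with TMM and median centring, given below, were counted as near although they rose. The median log2 ratio of the members, 0.011, became 0.063 with TMM factors, 0.062 with median centring and -0.16 on the authors' RPM scale. Over the 58 peaks that cover a RefSeq start, of 50 members and of 8 genes whose peak is assigned to a neighbour, it was 0.048, a set without 19 of the members. The summed count ratio, 1.05, became 1.08 with TMM factors and 1.08 with median centring, and 0.928 with RPM. With RPM, 21 members lay above 0 in place of 35, and intervals lay above 1 for 7 members and below 1 for 21, in place of 14 and 2. With TMM and with median centring 47 lay above 0, and 20 intervals lay above 1 and 2 below. The shifts under TMM, RPM and median centring follow from the scaling, which moves all log2 ratios by nearly the same amount: the median of all promoters was -0.02 with CPM, 0.03 with TMM and -0.19 with RPM. A threshold of 1.5-fold gave 1 member in place of 0. The count of members past 2-fold was 0 in each alternative that kept that threshold, and the median density stayed between 55.2 and 58.0 CPM per kb. The weakest member, Rpl4, had 66 counts in the knockout and 73 in the control, which leaves its ratio of 0.945 an interval of 0.667 to 1.34.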

Other observations

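The members on chromosome 11 were noticed after their values were seen. Of 7 there, Rpl19, Rpl23, Rpl23a and Rpl38 had intervals above 1 with CPM scaling, 4 of the 14 in all, and the median log2 ratio was 0.38. The other members on that chromosome were near 0, with log2 ratios of -0.02 for Rpl26, -0.04 for Rpl27 and -0.08 for Rps27a. Over the 1182 promoters of chromosome 11 the median was 0.02, and 16.1% of intervals lay above 1. Chromosome 7 held the most members, 13, with a median of 0.08, of which Rps19 had an interval above 1 and Rplp2 one below.

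A cluster of 4 distal peaks is assigned to Rpl29, at distances of -23799 to -7311 bp from its start. The nearest had 67 counts in the knockout and 131 in the control (ratio 0.534, 0.392 to 0.723), while the intervals of the other 3 held 1 with CPM scaling. That of the Rpl29 promoter (324 and 362 counts) held 1 with CPM scaling and lay below 1 on the RPM scale. These peaks were also singled out after their values were seen.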
